A study of Mus musculus with 72 samples.

Results

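The Gnas imprinted region was described CpG by CpG on its maternal and paternal alleles. Its members are the rows of the deposited methylation table that carry the feature name Gnas: 11 CpGs of 224 in the table. They lie on chromosome 2 (GRCm38), from position 174295708 to 174295954. The assay, IMPLICON, amplifies bisulfite-converted DNA of imprinted regions and sorts the reads by the strain variants they carry into the 2 parental genomes. Every CpG thus has a methylation percentage and a number of calls on each allele. A CpG was used in a library where its allele had at least 50 calls. By that rule 10 of the 11 CpGs entered, and the eleventh, at 174295954, never had more than 9 calls on an allele.

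The mice were female F1 animals of reciprocal crosses between the BL6 and CAST strains, and the study asked how stable imprinting is in the aged brain. There were 4 old mice: mice 1 and 2, 101 weeks old, with a BL6 mother and a CAST father, and mice 3 and 4, 103 weeks old, with a CAST mother and a BL6 father. There were 4 young mice: mice 5 and 6, 8 weeks old, with a CAST mother, and mice 7 and 8, 9 weeks old, with a BL6 mother. Each mouse gave 1 library of hippocampus, cerebellum, prefrontal cortex, hypothalamus, nucleus accumbens and, outside the brain, lung, 48 libraries in all. The tissues were dissected and homogenised whole, so that a shift in cell types and a shift within cells cannot be told apart. Within an age group the direction of the cross and the age in weeks go together, since its 2 crosses differ by 1 or 2 weeks.

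Gnas encodes the stimulatory G protein alpha subunit, and alternative first exons of the same locus give further transcripts, among them Nesp and Gnasxl. The antisense transcript Gnasas1, also called Nespas, is read from the paternal allele in mice, and the region around its start carries methylation that is set in the oocyte and kept on the maternal allele. That mark is one of the germline imprints by which the parental alleles of the locus are told apart.

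The 10 CpGs used lie between 174295708 and 174295902, inside the annotated span of the Gnas gene (174284320 to 174346744, plus strand). The start of Gnasas1 is at 174295436 and this gene runs on the minus strand to 174281237. CpG 1 therefore lies 272 bp and CpG 10 lies 466 bp upstream of the Gnasas1 start, with the CpGs numbered along the chromosome and away from that start. The other 8 lie at 174295728, 174295746, 174295752, 174295760, 174295815, 174295821, 174295848 and 174295900. The list of Gnas starts used here has no entry for Gnasxl. Of the starts it holds, the first, at 174284320, is 11388 bp before CpG 1. The next one listed, at 174327749, is 31847 bp after CpG 10. The distance of the CpGs to the Gnasxl start is therefore not given. Whether the CpGs are exonic or intronic is not resolved by the gene spans used here.

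Libraries held 376 to 461238 calls over the whole table, with a median of 62773. At Gnas the median calls per CpG of the libraries used ran from 62 to 2042 on the maternal allele (median 317) and from 64 to 2016.5 on the paternal allele (median 333). The hippocampus library of old mouse 3, with 376 calls in all, had no Gnas CpG at the minimum, which leaves 47 libraries with all 10 CpGs on both alleles. The libraries of young mouse 8 had the fewest Gnas calls, at a median of 89.5 per CpG and allele, against 340.5 in the other mice. Counting error was smaller than the spread between mice: per tissue and allele the median counting standard error of a CpG was 1.297 to 2.74 percentage points, and the median SD between mice was 3.54 to 8.20 points apart from 28.7 points on the maternal allele of prefrontal cortex.

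That last value traces to 1 library. In the prefrontal cortex of young mouse 5, the maternal allele of Gnas was at 2.65% and the paternal allele at 9.13%, a maternal minus paternal difference of -6.48 points. Both alleles were flat across the amplicon, with all maternal CpGs between 2.46% and 3.24% and all paternal CpGs between 8.80% and 9.35%. The library was not shallow, with a median of 650 maternal and 727 paternal calls per CpG. In the same library the maternal minus paternal difference was 16.7 points at H13, 36.8 points at Plagl1 and 89.7 points at Impact. In the other 46 libraries the Gnas difference ran from 45.3 to 85.6 points (median 69.5), so this library lies outside their range. Values without it, a choice made after it was seen, stand beside the main results over prefrontal cortex or all tissues.

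**Figure D1:**
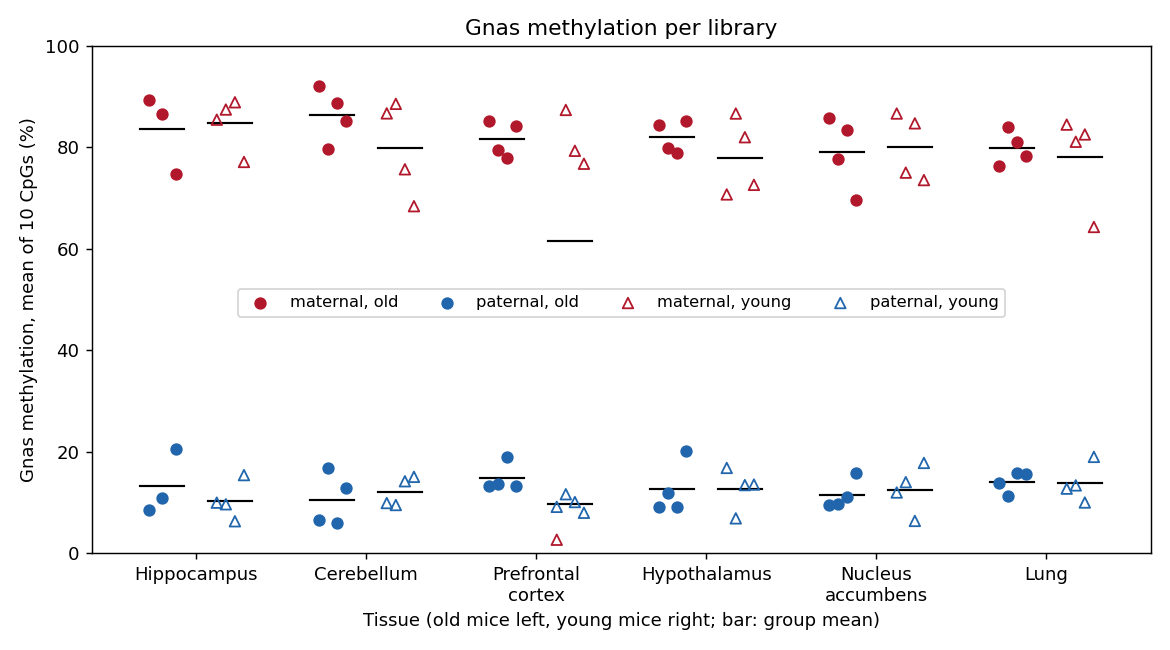
Methylation of Gnas in each library, as the mean of 10 CpGs in percent (vertical axis), by tissue (horizontal axis), with old mice as filled circles left of young mice as open triangles, the maternal allele in red, the paternal allele in blue and bars at group means. Maternal values lie well above paternal values in every library except the prefrontal cortex of young mouse 5, where the maternal allele is at 2.65%.

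Gnas was methylated on the maternal allele and mostly unmethylated on the paternal allele in every tissue. Averaged over the tissues of a mouse, the maternal allele was at 79.7% ± 5.83 and the paternal allele at 12.3% ± 2.22 (SD, n = 8 mice). The difference was 67.4 ± 7.09 points, with a 95% interval of 61.6 to 73.2 points (limma over all regions of the table, Benjamini-Hochberg adjusted p = 4.85e-08), a test that 70% of the 10 regions passed. With the prefrontal cortex library of mouse 5 left out, the maternal allele was at 81.3% ± 4.14, the paternal allele at 12.4% ± 2.21 and the difference at 68.96 points (95% interval 64.1 to 73.9). By mouse it was 75.4, 68.9, 70.9 and 63.2 points in old mice 1 to 4 and 57.7, 73.5, 72.1 and 57.3 points in young mice 5 to 8. The maternal allele was the higher one in all 8 mice, and the lowest values belonged to young mice 5 and 8. The value of mouse 5 was 70.5 points without its prefrontal cortex library, and mouse 8 alone was then lowest.

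By tissue the maternal level (lowest, median and highest library) was 74.8%, 86.6% and 89.4% in hippocampus, 68.4%, 85.9% and 92.1% in cerebellum, and 2.65%, 79.4% and 87.4% in prefrontal cortex. Hypothalamus had 70.7%, 80.9% and 86.7%, nucleus accumbens had 69.6%, 80.6% and 86.7%, and lung had 64.3%, 81.1% and 84.5%. The paternal level had medians between 9.96% in hippocampus and 13.6% in lung, and single libraries ran from 6.01% to 20.5%. Apart from the 1 library described above, the lowest maternal value, 64.3%, was far above the highest paternal one.

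The maternal minus paternal difference passed an adjusted p of 0.05 at Gnas in all 6 tissues (limma with the cross as covariate). In the brain it was 72.2 points for hippocampus (adjusted p = 1.48e-06, n = 7), 71.8 for cerebellum (2.37e-07), 67.6 for nucleus accumbens (5.15e-07), 67.4 for hypothalamus (1.82e-07) and 59.4 for prefrontal cortex (0.000607), n = 8 each. Lung had 65.1 points (1.56e-07, n = 8). All 10 CpGs passed in each tissue as well. Of all regions tested 62.5% to 66.7% passed per tissue, and of all CpGs 59% to 64%. Without the prefrontal cortex library of mouse 5 the difference in prefrontal cortex was 68.8 points (adjusted p = 5.91e-08). An exact two-sided sign-flip test over mice gave 0.00781 in cerebellum, hypothalamus, nucleus accumbens and lung, the smallest p that 8 mice allow, and 0.0156 in prefrontal cortex and in hippocampus, where 7 mice allow no smaller one.

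The alleles did not differ in a uniform way along the amplicon. Going away from the Gnasas1 start, maternal methylation was lower and paternal methylation was higher. Both changes were of similar size, with 11.7 points between the highest and lowest CpG on the maternal and 10.4 points on the paternal allele. How reliably reads were sorted by allele along the amplicon was not tested. On the maternal allele the highest CpG was CpG 2 at 84.8% ± 6.20 and the lowest was CpG 10 at 73.1% ± 4.72 (SD, n = 8 mice). On the paternal allele the lowest was CpG 1 at 8.51% ± 2.92 and the highest was CpG 9 at 18.9% ± 2.60. The maternal minus paternal difference was thus 75.3 ± 8.17 points at CpG 1 and 54.3 ± 5.03 points at CpG 10. These were the highest and lowest CpGs also without the prefrontal cortex library of mouse 5, at 86.5% for CpG 2 and 74.6% for CpG 10 on the maternal allele and at 8.49% for CpG 1 and 19.1% for CpG 9 on the paternal allele.

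**Figure D2:**
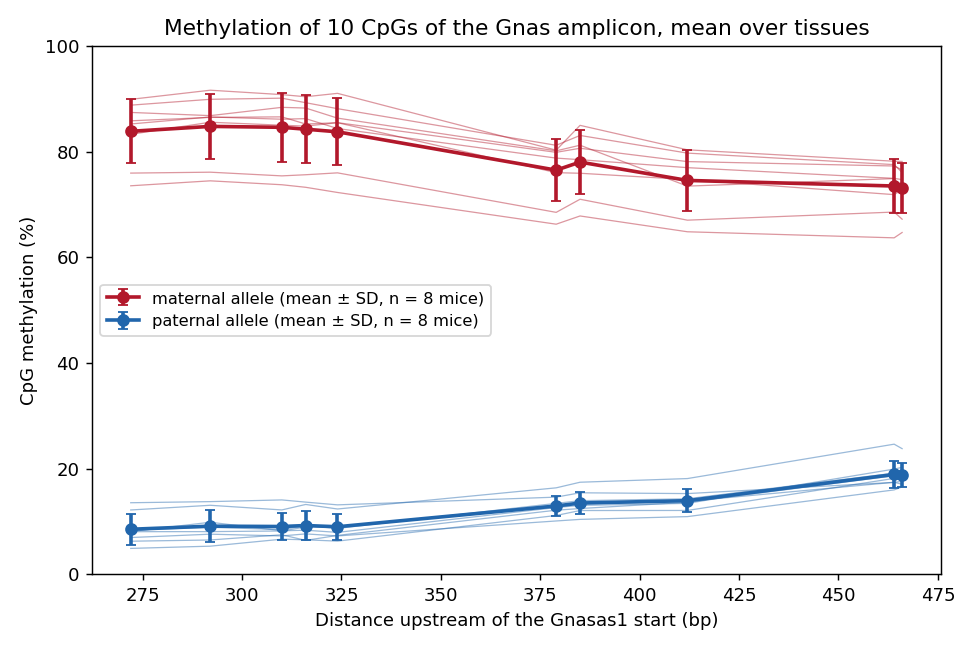
Methylation in percent (vertical axis) of the 10 Gnas CpGs by distance upstream of the Gnasas1 start in bp (horizontal axis), maternal allele in red and paternal allele in blue, with thick lines for mean ± SD over 8 mice and a thin line for each mouse's plain mean over its libraries. The maternal line goes down from 83.8% at 272 bp to 73.1% at 466 bp, and the paternal line goes up from 8.51% to 18.8%.

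The pattern was in steps rather than even. CpGs 1 to 5, within 52 bp of each other, were at 83.7% to 84.8% on the maternal allele and at 8.51% to 9.22% on the paternal one. CpGs 6 to 8 were at 74.5% to 78.01% maternal and at 12.9% to 13.9% paternal. CpGs 9 and 10, 2 bp apart, were at 73.5% and 73.1% maternal and at 18.9% and 18.8% paternal. All 10 CpGs sit on the same sequenced molecules, so neighbours are not independent.

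Each CpG was tested against the mean of the other CpGs of its region and allele (limma on 1 value per mouse over all CpG-alleles of the table, a CpG-allele being 1 CpG on 1 parental allele). All 20 Gnas CpG-alleles passed, against 65.1% of the 258 tested, so a call alone is common in this table. Their deviations were a median of 4.35 points in size, against 1.70 points over all CpG-alleles. On the maternal allele CpGs 1 to 5 were higher than the rest by 4.52 to 5.69 points, and CpGs 6 to 10 were lower, CpG 10 with a deviation of -7.37 points (95% interval -8.56 to -6.17, adjusted p = 2.85e-06). On the paternal allele CpGs 1 to 5 were lower, CpG 1 with a deviation of -4.19 points (95% interval -5.18 to -3.20, adjusted p = 2.80e-05), and CpGs 6 to 10 were higher, CpG 9 by 7.33 points (95% interval 5.81 to 8.85, adjusted p = 1.12e-05). The smallest deviation was that of paternal CpG 6, at 0.695 points (adjusted p = 0.0373). All 20 passed as well without the prefrontal cortex library of mouse 5, with -7.49 points at maternal CpG 10, -4.28 points at paternal CpG 1 and 7.49 points at paternal CpG 9.

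The direction held in nearly every library. A line through the 10 CpGs had a negative maternal slope in 46 of 47 libraries and a positive paternal slope in 46 of 47. The exceptions were a maternal slope of 0.192 points per 100 bp in the prefrontal cortex of young mouse 5 and a paternal slope of -1.98 points per 100 bp in the lung of young mouse 8, whose libraries were shallow. The mean slope was -6.88 ± 2.55 points per 100 bp on the maternal allele and 5.61 ± 2.58 on the paternal allele (SD over 47 libraries, which share 8 mice). In each tissue the smallest maternal minus paternal difference was at CpG 9 or 10 and the largest at CpG 1, 2 or 3.

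The other 6 maternally methylated regions had ranges on both sides of that of Gnas. Between the lowest and highest CpG, Gnas spanned 11.7 points on the maternal and 10.4 points on the paternal allele. On these alleles Snrpn spanned 5.59 and 10.2 points, Plagl1 5.64 and 1.53 points and Commd1 7.64 and 2.50 points. Mest spanned 18.4 and 9.22 points, Impact 32.3 and 4.77 points and H13 39.8 and 41.4 points. On the maternal allele Gnas was thus the fourth widest of 7, and on the paternal allele the second widest. These spans are a description and were not tested against each other.

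Each brain area was then set against lung of the same animals. Over the 10 CpGs together, no brain area passed the threshold at Gnas on either allele (limma, adjusting for age group and direction of the cross, with no term for the animal). The maternal level of hippocampus minus that of lung was 5.34 points (95% interval -1.74 to 12.4, adjusted p = 0.309) and that of cerebellum minus lung was 4.11 points (-2.48 to 10.7, adjusted p = 0.454). Hypothalamus gave 1.04 points, nucleus accumbens 0.565 points and prefrontal cortex -7.40 points, or 2.65 points without the library of mouse 5. On the paternal allele the mean of each of the 5 brain areas minus that of lung was below 0, at -2.59 points in cerebellum, -2.10 in hippocampus, -1.94 in nucleus accumbens, -1.73 in prefrontal cortex and -1.33 in hypothalamus, with adjusted p from 0.436 to 0.879. Between 0% and 27.8% of all region-alleles (1 region on 1 parental allele) passed in these comparisons.

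Single CpGs passed for hippocampus against lung in the fit where each mouse was compared with itself. In the fit that ignores the animal, none of the 20 Gnas CpG-alleles passed in any brain area, where 0% to 21.1% of all CpG-alleles passed. At an unadjusted p under 0.05 there were 4 in hippocampus, 2 in cerebellum, 1 in nucleus accumbens and 0 in prefrontal cortex and hypothalamus. Of all CpG-alleles 20.1% were under that p in hippocampus, 16.6% in cerebellum, 29.6% in nucleus accumbens, 11.2% in prefrontal cortex and 22.9% in hypothalamus, so the Gnas counts were at or below these shares. With the mouse as a replicate block, the difference of its 2 libraries was tested in mice with both, without terms for age and cross. There 5 of the 20 Gnas CpG-alleles passed in hippocampus against lung, namely maternal CpGs 6 to 10, each higher in hippocampus. In that fit 15.6% of all CpG-alleles passed, 15 higher and 17 lower in hippocampus. The median difference of the 10 maternal CpGs was 5.08 points, against 0.205 points over all CpG-alleles. The latter mix both parental alleles and all regions of the table, so these medians are not of like sets. None of the 10 paternal CpGs passed, with differences from -2.79 to -1.39 points.

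The lowest p was at CpG 10. Its maternal level (lowest, median and highest library) was 70.4%, 80.1% and 83.2% in hippocampus, against 50.8%, 69.97% and 78.1% in lung. Within mice the difference was 8.94 points (95% interval 4.45 to 13.4, adjusted p = 0.0167), and hippocampus was the higher tissue in 7 of 7 mice. At CpG 9 it was 8.29 points (adjusted p = 0.0367), also higher in 7 of 7. At CpGs 6, 7 and 8 it was 8.05, 6.83 and 6.28 points (adjusted p = 0.0263, 0.0379 and 0.0472), each with 6 of 7 mice higher in hippocampus. At CpGs 1 to 5 it was 2.59 to 3.88 points and did not pass. In prefrontal cortex, without the library of mouse 5, maternal CpG 9 was also higher than in lung, by 8.17 points (95% interval 3.40 to 12.9, adjusted p = 0.0414), where 10.1% of all CpG-alleles passed. At maternal CpGs 6 to 10, cerebellum minus lung was 3.93 to 7.83 points within mice, with 5 to 7 of 8 mice higher in cerebellum. Hypothalamus minus lung was 0.582 to 4.97 points there, and nucleus accumbens minus lung -0.375 to 3.63 points. No Gnas CpG-allele passed with the block in these last areas.

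**Figure D3:**
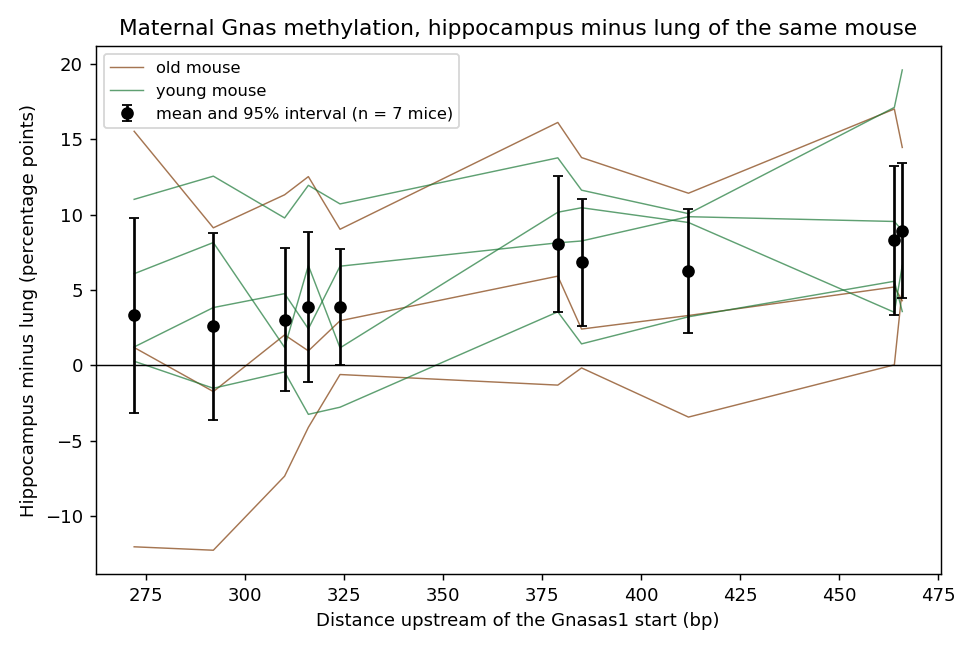
Hippocampus minus lung of the same mouse in percentage points (vertical axis) for the maternal allele of the 10 Gnas CpGs, by distance upstream of the Gnasas1 start in bp (horizontal axis), with a line per mouse (old brown, young green) and black points with 95% intervals for the mean of 7 mice. The intervals from 324 bp on lie above 0, and the 5 CpGs from 379 bp on, with means of 6.28 to 8.94 points, passed the adjusted threshold.

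This count rested on single animals. With 1 mouse left out of the paired comparison, 0 CpG-alleles passed without mouse 6, 1 passed without mouse 1, 7 or 8, and 8 passed without mouse 4, where 20% of all CpG-alleles did. The part of depth in this was not tested. The hippocampus libraries of mice 4 and 8 had a median of 64 and 81 maternal calls per CpG. With a minimum of 100 or 200 calls, which removes such libraries, 7 and 8 of 20 Gnas CpG-alleles passed without a block, against 12.7% and 22.6% of all CpG-alleles. The region as a whole passed on both alleles (maternal 5.91 points, adjusted p = 0.0110, and paternal -3.17 points, adjusted p = 0.00898, at 100 calls), where 25% of all region-alleles passed at 100 calls and 44.4% of 9 at 200 calls.

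The mean slope along the maternal allele was steepest in lung. It was -5.96 ± 1.16 points per 100 bp in hippocampus (n = 7), -6.45 ± 1.09 in cerebellum, -4.99 ± 3.26 in prefrontal cortex, -6.65 ± 2.34 in hypothalamus and -7.39 ± 2.29 in nucleus accumbens, against -9.74 ± 2.02 in lung (SD, n = 8 where not stated). Without the library of mouse 5 prefrontal cortex had -5.73 ± 2.70 (n = 7). The slope was steeper in lung than in hippocampus in 7 of 7 mice, in 8 of 8 against cerebellum, 7 of 8 against prefrontal cortex (6 of 7 without that library), 6 of 8 against hypothalamus and 5 of 8 against nucleus accumbens. The paternal slope was 4.99 to 6.14 points per 100 bp in the brain areas, against 5.59 in lung. These slopes are given as a description and were not tested.

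Old and young mice did not differ past the threshold at Gnas in any tissue, on either allele. Over all tissues the maternal level was 82.3% ± 2.57 in old mice and 77.04% ± 7.35 in young mice (SD, n = 4 each), a difference of 5.28 points (95% interval -3.95 to 14.5, adjusted p = 0.438). The paternal level was 12.7% ± 2.59 in old mice and 11.9% ± 2.07 in young mice, a difference of 0.860 points (95% interval -3.11 to 4.83, adjusted p = 0.772). Without the prefrontal cortex library of mouse 5 the maternal difference was 1.85 points (95% interval -5.15 to 8.85) and the paternal one 0.711 points (-3.18 to 4.60). The groups overlapped on both alleles, and exact two-sided permutation tests gave p = 0.286 for the maternal allele and p = 0.6 for the paternal one, where the smallest possible p is 0.0286.

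Of the region-alleles tested per tissue, 0% passed with limma, and 0 of the 20 Gnas CpG-alleles passed in each tissue, where 0% of all CpG-alleles did. With edgeR's quasi-likelihood test on the calls, 0 Gnas region-alleles and 0 Gnas CpG-alleles passed as well. At an unadjusted p under 0.05, limma had 5 of 20 Gnas CpG-alleles in prefrontal cortex, 2 in hippocampus, 1 in lung and 0 in the other tissues. With edgeR there were 0 in each. Over the whole table edgeR had 37 CpG-alleles under that p in lung, where limma had 25, and 16 of 200 in cerebellum. It had 7 in hippocampus, 3 in prefrontal cortex, 2 in hypothalamus and 3 of 200 in nucleus accumbens. Of all CpG-alleles 5.37% were under that p in prefrontal cortex, 3.37% in hippocampus and 12.2% in lung with limma. Of the 2 Gnas region-alleles, 1 was under it in prefrontal cortex, where 12.5% of all were, and 0 in hippocampus, where 5.88% were.

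**Figure D4:**
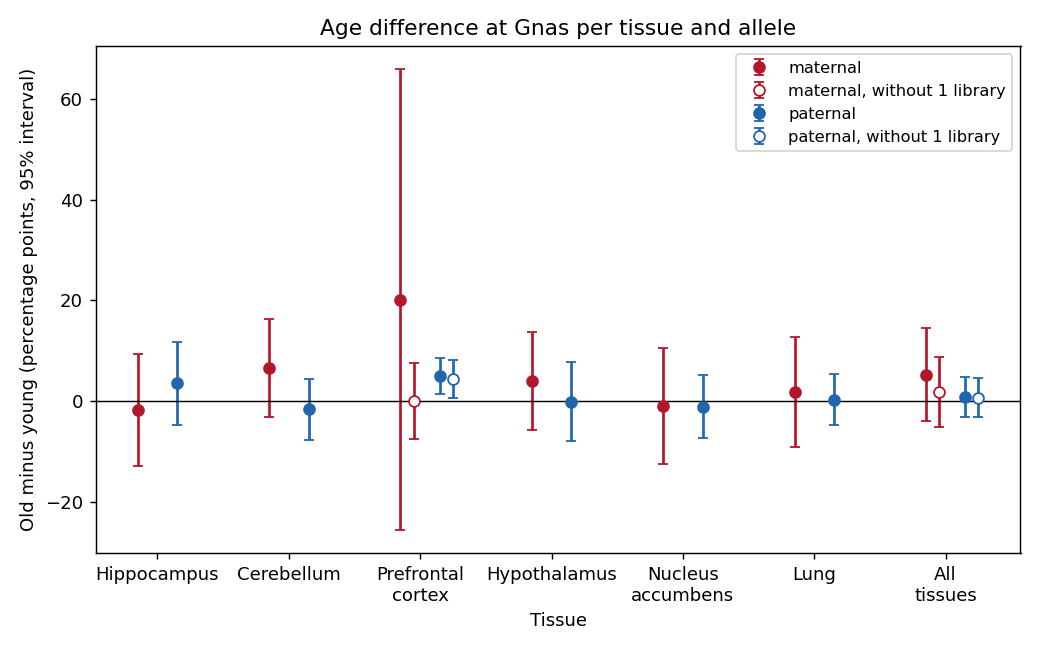
Old minus young methylation of Gnas in percentage points with 95% intervals (vertical axis) per tissue and over all tissues (horizontal axis), maternal allele in red and paternal allele in blue, and open symbols without the prefrontal cortex library of young mouse 5. The paternal interval of prefrontal cortex, 1.43 to 8.64 points, and that without the library, 0.699 to 8.12 points, lie above 0, and all others include it.

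The paternal allele in prefrontal cortex came nearest to a difference. It was at 13.3%, 13.6%, 18.9% and 13.2% in old mice 1 to 4, against 9.13%, 11.6%, 10.1% and 7.96% in young mice 5 to 8. Every old value was above every young one. Groups without overlap made up 6.25% of the 16 region-alleles tested in this tissue, a share that consists of this 1 region-allele. The difference was 5.04 points (95% interval 1.43 to 8.64), with an unadjusted p of 0.0142 in limma and an adjusted p of 0.131. The exact permutation test gave 0.0286, the smallest p possible, and edgeR gave an unadjusted p of 0.0435 (adjusted p = 0.468).

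Within that allele, the lowest p belonged to a CpG far from the Gnasas1 start. This CpG 9 was at 22.2%, 20.2%, 24.2% and 24.5% in old mice 1 to 4, against 9.20%, 17.9%, 14.7% and 11.7% in young mice 5 to 8. CpG 10 was at 23.6%, 18.1%, 24.3% and 22.6% in these old mice, against 9.20%, 18.5%, 14.2% and 11.8% in these young mice. The groups did not overlap at CpGs 6 to 9, 4 of 20 Gnas CpG-alleles, against 5.37% of all CpG-alleles in this tissue. They overlapped at CpG 10, by a single old mouse.

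The call depended on the fit. The block fit differs from the main one in its mouse term and in taking 47 libraries of all tissues together. In a fit over all tissues with the mouse as a replicate block, paternal CpG 9 was higher in old prefrontal cortex by 9.39 points (95% interval 3.69 to 15.1, adjusted p = 0.0286) and paternal CpG 10 by 8.75 points (3.22 to 14.3, adjusted p = 0.0386). In that fit 7.32% of all CpG-alleles passed in prefrontal cortex. Neither passed when mouse 1, 3, 4 or 5 was left out. Without mouse 6, 6 Gnas CpG-alleles passed, 4 maternal and 2 paternal, where 7.47% of all CpG-alleles did. The prefrontal cortex library of mouse 5, with its low maternal level, was still among those libraries. With only that library left out of the block fit, 0% of all CpG-alleles passed. There paternal CpG 9 had 7.60 points (1.49 to 13.7, adjusted p = 0.464) and paternal CpG 10 had 6.93 points (0.966 to 12.9, adjusted p = 0.464). In the main limma fit, of prefrontal cortex alone and without the block, the adjusted p of CpG 9 was 0.407.

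In the other tissues the intervals were wide. The maternal level in cerebellum was 92.1%, 79.7%, 88.7% and 85.1% in old mice 1 to 4, against 86.7%, 88.6%, 75.7% and 68.4% in young mice 5 to 8, a difference of 6.58 points (95% interval -3.08 to 16.2, adjusted p = 0.402) with groups that overlap. The paternal level in hippocampus was 13.3% ± 6.33 in old mice (n = 3), against 10.3% ± 3.77 in young mice (n = 4), a difference of 3.57 points once adjusted for the cross (-4.70 to 11.8, adjusted p = 0.882). The remaining maternal differences were 4.11 points for hypothalamus, 1.81 for lung, -0.827 for nucleus accumbens and -1.69 for hippocampus. The maternal difference in prefrontal cortex was 20.2 points (-25.5 to 65.9) with the library of mouse 5 and 0.0677 points (-7.38 to 7.52) without it. The remaining paternal differences were 0.364 points for lung, -0.0767 for hypothalamus, -1.04 for nucleus accumbens and -1.59 for cerebellum.

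The CpG-allele with the largest old minus young difference in hippocampus was paternal CpG 10, at 7.41 points adjusted for the cross (95% interval 2.35 to 12.5, adjusted p = 0.993). It was at 21.7% ± 4.63 in old mice (n = 3) and at 14.8% ± 2.10 in young mice (n = 4), with no overlap, which held for 8.65% of all CpG-alleles in this tissue. In the other tissues the largest was on the maternal allele: CpG 4 in cerebellum (8.26 points, adjusted p = 0.452) and prefrontal cortex (23.4 points, 0.631), CpG 1 in hypothalamus (6.07 points, 0.859), CpG 7 in nucleus accumbens (-3.09 points, 0.939) and CpG 2 in lung (6.31 points, 0.761). Without the library of mouse 5 maternal CpG 4 had 2.12 points in prefrontal cortex, and the largest there was paternal CpG 9, at 7.37 points (95% interval 4.00 to 10.7, adjusted p = 0.109).

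The contrast of the alleles did not differ past the threshold with age either. The maternal minus paternal difference was 69.6 ± 5.06 points in old mice and 65.2 ± 8.86 points in young mice (SD, n = 4 each), which differ by 4.42 points (95% interval -7.82 to 16.7, adjusted p = 0.658). Without the prefrontal cortex library of mouse 5 the old minus young value was 1.14 points (-9.72 to 12.0). Per tissue it ran from -5.26 points in hippocampus to 15.1 points in prefrontal cortex, which becomes -4.34 points without that library, with adjusted p from 0.477 to 0.994 over the tissues. At most 12.5% of the 8 regions passed in a tissue.

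The age difference in a brain area minus that in lung, taken within mice, did not pass at Gnas in any of 10 tests. In hippocampus it was -3.95 points on the maternal (adjusted p = 0.646) and 3.68 points on the paternal allele (adjusted p = 0.614). In prefrontal cortex the paternal value was 4.67 points (95% interval -2.14 to 11.5, adjusted p = 0.547). At most 6.25% of 16 region-alleles passed in a brain area. Hippocampus passed when old mouse 1 was left out, at -7.10 points on the maternal (adjusted p = 0.00322) and 5.62 points on the paternal allele (adjusted p = 0.0155). That fit has 2 old mice in hippocampus, and 28.6% of its 14 region-alleles passed.

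The direction of the cross made no difference past the threshold. Over all tissues the maternal level was 80.3% ± 5.74 with a BL6 mother and 79.1% ± 6.73 with a CAST mother (SD, n = 4 each), a difference of 1.20 points (95% interval -8.03 to 10.4, adjusted p = 0.963). The paternal level was 11.8% ± 2.23 with a BL6 mother and 12.7% ± 2.45 with a CAST mother, a difference of -0.892 points (-4.87 to 3.08, adjusted p = 0.963). The strain of the allele, separated from its parent of origin by the reciprocal crosses, gave a BL6 minus CAST difference of 1.05 points (-5.03 to 7.13, adjusted p = 0.773). Leaving out the prefrontal cortex library of mouse 5, the maternal cross difference was -2.07 points (-9.03 to 4.90), the paternal one -1.03 points (-4.92 to 2.85) and the strain difference -0.516 points (-5.95 to 4.92), so the maternal and the strain values changed sign. Of all region-alleles and of all CpG-alleles 0% passed for the cross, with limma. At an unadjusted p under 0.05 there were 0 Gnas region-alleles, against 11.8% of all in cerebellum, 5.88% in prefrontal cortex and in hypothalamus, 5.56% in lung and 0% in hippocampus and nucleus accumbens. There were 2 Gnas CpG-alleles each in cerebellum and lung, where 14.4% and 8.52% of all were under it. In cerebellum 10 Gnas CpG-alleles passed when mouse 1 was left out, where 22.2% of all CpG-alleles did. Of these, 9 were maternal and 1 was paternal, and neighbouring CpGs are not independent. Mouse 2 was the only old mouse with a BL6 mother in that fit.

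Gnas was compared with the other 6 maternally methylated regions of the table in the same libraries. The mean of the others was taken over those with values in a library, so its members varied. For the difference they numbered from 1, in the hippocampus of mouse 8, to 6, in the hypothalamus of mouse 1. Mest entered the difference in old mice and, of the young, only in the lung of mouse 6. The maternal level of Gnas was 79.6% ± 5.76, against 85.3% ± 5.17 at the other regions (SD, n = 8 mice). The paternal level of Gnas was 12.3% ± 2.22, against 8.50% ± 3.43. By mouse the maternal level of Gnas minus that of the other regions was -2.47, -6.89, -6.14 and -6.43 points in old mice 1 to 4 and -15.8, -3.68, -3.81 and -0.718 points in young mice 5 to 8. Gnas was thus lower in 8 of 8 mice.

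**Figure D5:**
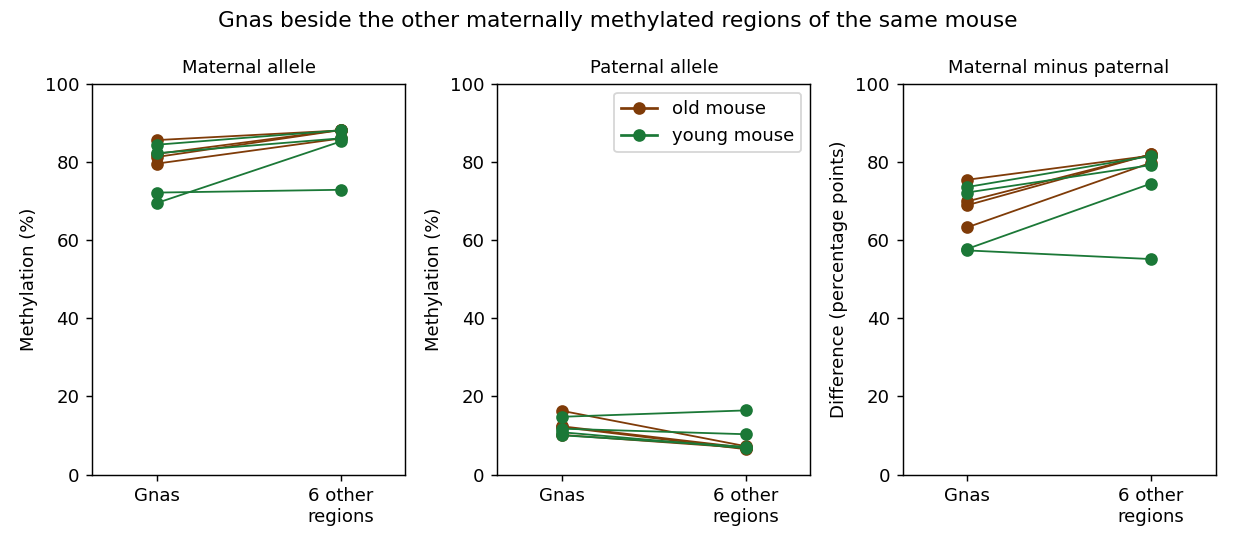
Gnas (left point of each line) beside the mean of those of the 6 other maternally methylated regions that had values in the same libraries (right point), 1 line per mouse, old in brown and young in green. The panels show the maternal level in percent, the paternal level in percent and the maternal minus paternal difference in percentage points, and in the first panel the Gnas value is the lower one in 8 of 8 mice.

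The mean maternal deviation was -5.74 points (exact two-sided sign-flip test p = 0.00781, adjusted p = 0.0469 over 21 tests of 7 regions and 3 measures). The paternal deviation was 3.80 points (exact p = 0.0234, adjusted p = 0.0547), higher at Gnas in 7 of 8 mice. The maternal minus paternal difference was smaller at Gnas by a mean of -9.67 points (exact p = 0.0156, adjusted p = 0.0469), in 7 of 8 mice. The exception in both was young mouse 8, the one with the fewest calls, in which 1 or 2 other regions reached the minimum per library. In all, 33.3% of the 21 tests passed. Gnas was not the region furthest below the others: Mest had a maternal deviation of -8.10 points (n = 6 mice, exact p = 0.0312, adjusted p = 0.0597) and a deviation of -12.6 points in the difference (n = 5, exact p = 0.0625, adjusted p = 0.101). With any 1 mouse left out, none of the 3 Gnas values passed (adjusted p from 0.0547 to 0.109). The remaining 7 mice allow no exact p below 0.0156, so after adjustment over 21 tests this cannot show whether the values rest on 1 mouse. They ranged from -6.46 to -4.31 points (maternal), 3.04 to 4.57 points (paternal) and -11.4 to -8.66 points (difference). Without the prefrontal cortex library of mouse 5 all 3 passed (adjusted p = 0.0365 each), at -4.11, 4.14 and -8.73 points.

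Across libraries, the maternal minus paternal difference at Gnas varied most closely with that of Plagl1 (Pearson r = 0.85, 40 libraries) and of H13 (r = 0.82, 47 libraries). Without the prefrontal cortex library of mouse 5, r was 0.39 at Plagl1 and 0.70 at H13, and 0.60 at Commd1. Within Gnas the maternal and paternal levels ran in opposite directions, with r = -0.19 over 47 libraries and r = -0.65 over the 46 without that library. The libraries come from 8 mice and regions of a library share its DNA, conversion and depth, so these correlations are descriptions. The mean of the alleles was 5.89% in the prefrontal cortex of mouse 5 and 41.6% to 52.6% in the other 46 libraries.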

How the data were processed

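For each CpG and parental genome the authors deposited a methylation level in percent and the count of calls behind it. The tools named in the submitters' processing notes are Bismark 0.14.4, bcl2fastq 2.20 and Trim Galore 0.6.6, with the build GRCm38. The tool that split reads by genome is not given in the sources used here. No molecular identifiers are named in the labels, so the counting standard errors and the Wilson intervals of CpG 11 cover counting error only. The limma intervals cover the spread between mice, or between libraries in fits that hold several libraries of a mouse. The labels do not say which strain genome 1 is, and BL6 was assumed. At Dlk1-Dio3, known for paternal methylation, pooled calls were then 17.1% maternal and 86.5% paternal with a BL6 mother, and 10.8% and 90.8% with a CAST mother. Ages are those of the sample labels, which for mice 1 and 2 fall below the range in the protocol text. The 24 samples of a second lane were not used here.

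Region levels are means over CpGs with at least 50 calls. limma 3.58.1 (R 4.3.3) was fitted over the whole table, with Benjamini-Hochberg adjustment within a tissue. Values over all tissues are 1 per mouse, each tissue centred first. edgeR 4.0.16 on methylated and unmethylated calls was an alternative. Age differences are adjusted for the cross. Most p-values measure the spread between animals. The main fit of a brain area against lung takes its 15 or 16 libraries as separate, with no term for the animal. The block fit for age takes 47 libraries over all tissues. The p-values of these 2 fits mix the spread between animals with that between libraries of an animal. Replicate numbers mark the same animal in every tissue and so pair the tissues. Over the whole table, the median correlation of same-mouse deviations ran from -0.41 to 0.38 over 15 pairs of tissues. At Gnas alone the correlation ran from -0.47 to 0.76 on the maternal allele (median 0.33). On the paternal allele it ran from -0.57 to 0.89 (median 0.09). The limma step was tested on simulated data. Coverage minimum, scale, pooling of calls and left-out mice were varied. The members, lists and tests were chosen with earlier results of these data known. CpGs named with values were the highest and lowest per allele, those past the threshold and the largest age difference per tissue.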

Additional observations from a re-analysis of the deposited data

Results flagged for a closer look

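Of 33 groups of 4 libraries examined (old or young mice of a tissue, for the maternal level, the paternal level and their difference), 4 had a library far from the others by Dixon's ratio, where chance gives about 1 in 20. In young prefrontal cortex, mouse 5 had a maternal level of 2.65%, against 76.8% to 87.4% in the other young mice, and a maternal minus paternal difference of -6.48 points, against 68.8 to 75.8 points. In old prefrontal cortex, mouse 3 had a paternal level of 18.9%, against 13.2% to 13.6% in the other old mice. In young lung, mouse 8 had a maternal level of 64.3%, against 81.1% to 84.5% in the other young mice. CpG 11, left out for its few calls, had 16 methylated of 52 maternal calls pooled over all libraries (30.8%, 95% Wilson interval 19.9% to 44.3%) and 21 of 63 paternal calls (33.3%, 22.9% to 45.6%).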

How the results depend on the processing

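The maternal minus paternal difference and its 10 CpGs kept their direction and call in each tissue under every alternative run, as did 20 Gnas CpG-alleles set against the rest of the amplicon, apart from paternal CpGs above the rest (4 or 5 with a mouse left out). Age, cross and tissue values at Gnas passed nowhere in the main analysis, and several changed sign in the alternatives. For those and the changed calls that follow, the cause was not tested. At a minimum of 100 calls, old minus young was 0.515 points on the paternal allele in hypothalamus, 1.53 in nucleus accumbens and, maternal, -2.82 in lung; at 200 calls it was 1.11 and -2.09 in these last tissues. In the allele difference it was -5.29 and -2.15 in nucleus accumbens and -5.42 and -5.03 in lung. The nucleus accumbens value at 200 calls passed the threshold. In that tissue only mice 1, 3, 5 and 7 had a median of at least 200 calls per CpG on both alleles. No combination of age and cross was thus replicated in that fit, and the share of all regions that passed is not given here. Hippocampus minus lung passed at 100 and 200 calls, with 5.91 and 5.78 points maternal and -3.17 points paternal at both, as did paternal nucleus accumbens at 200 calls (-3.10). Counts of CpG-alleles were 7 and 8 for hippocampus and 6 for nucleus accumbens at 200 calls. For nucleus accumbens the share of all CpG-alleles at that minimum is not given here, and 21.1% passed in the main analysis. Its count of 6 can therefore not be read as particular to Gnas. Maternal hypothalamus minus lung was -0.00191 and -1.13 at these minimums and maternal nucleus accumbens -0.675 at 100 calls. The maternal age effect minus that in lung was 1.50 in hippocampus at both and 3.79 in nucleus accumbens at 200 calls. The logit scale gave 0.00305 for age on the paternal allele of hypothalamus, and edgeR gave -0.0273 (log2 odds) for the paternal allele over all tissues. With the mouse as a replicate block, which is a paired comparison against lung, counts of CpG-alleles were 2 for age in prefrontal cortex and 5 for hippocampus against lung; no other call at Gnas changed. Without the prefrontal cortex library of mouse 5, chosen after seeing the data, prefrontal cortex gave -4.34 for age in the allele difference, 2.65 against lung (3.24 and 1 CpG-allele with the block, and 5 for hippocampus), -3.40 for the age effect minus that in lung and -0.0713 for age on the maternal allele with the block, while the maternal cross value was -2.07 and the strain value -0.516. Gnas minus the other regions was -3.56 maternal and -4.98 in the difference at 20 calls, no longer past the threshold, and the paternal value passed at 4.38, 4.08 (100 and 200 calls), 3.98 (pooled calls) and 4.14 (without that library). With each mouse left out in turn, old minus young ranged from -6.29 to 4.98 (maternal) and -1.16 to 7.03 (paternal) in hippocampus, -3.36 to 0.719 (paternal) in cerebellum, -2.83 to 1.54 (paternal) in hypothalamus, -3.75 to 2.64 and -3.04 to 1.53 in nucleus accumbens, -2.82 to 4.48 and -0.989 to 2.61 in lung, and -0.474 to 2.195 (paternal) over all tissues. In the allele difference it ranged from -13.3 to 6.14 in hippocampus, -4.34 to 28.6 in prefrontal cortex, -0.274 to 10.1 in hypothalamus, -5.29 to 4.91 in nucleus accumbens and -5.42 to 5.47 in lung. Maternal levels against lung ranged from -10.2 to 3.24 in prefrontal cortex, -0.00191 to 3.15 in hypothalamus and -0.705 to 1.90 in nucleus accumbens. Age effects minus that in lung ranged from -7.10 to -1.74 (maternal) and 0.698 to 5.62 (paternal) in hippocampus, -4.67 to 0.412 (paternal) in cerebellum, -3.40 to 31.8 (maternal) in prefrontal cortex, -2.40 to 5.55 and -2.78 to 1.65 in hypothalamus and -5.48 to 0.782 (maternal) in nucleus accumbens. Cross values ranged from -1.49 to 4.37 (maternal) and -2.23 to 0.442 (paternal), and the strain value from -0.184 to 2.93. Gnas minus the other regions ranged from -6.46 to -4.31 (maternal) and -11.4 to -8.66 (difference). Counts with the block ranged from 0 to 6 for age in prefrontal cortex and 0 to 8 for hippocampus against lung; without it, the count for cross in cerebellum ranged from 0 to 10.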
